A study of Homo sapiens with 32 samples.

Results

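The genes described here are MYC and 8 neighbours on the long arm of chromosome 8, in band 8q24: the long noncoding RNAs PVT1 and CASC11, the LRAT domain gene LRATD2, the retrogene POU5F1B, and TRIB1, NSMCE2, WASHC5 and ASAP1 at either flank. They are 9 of the 62703 gene identifiers in the count tables, matched by name. MYC and LRATD2 were chosen on their fall in the knockouts, so their changes against the control are given as a description with no test. The other 7 were taken from the same region, to see whether that fall was shared by the locus. They were named with earlier results of these data known and are not all of its genes: 26 other tested genes lie within 5 Mb of MYC. The cells are HEK293T, a line derived from human embryonic kidney and transformed with viral genes. Each knockout of IGF2BP1, IGF2BP2 or IGF2BP3 is a clone grown from a sorted GFP-positive cell after transient delivery of non-integrating plasmids carrying several guide RNAs, with loss of the protein as the screen. The control carried a guide with no target and was made alongside; the labels do not say whether it is a clone or a pool. No group received any other treatment.

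Poly(A) RNA was sequenced from whole cells (total RNA) and from a nuclear and a cytoplasmic fraction, in 32 libraries. Each kind of RNA has 4 control libraries and 2 libraries per knockout, except that cytoplasmic RNA of the IGF2BP3 knockout has 4. Control replicates 1 to 4 belong to batches 1 to 4 as labelled. The IGF2BP1 knockout shares batches 1 and 2 with the control, the other knockouts share batches 3 and 4, and cytoplasmic IGF2BP3 knockout replicates 3 and 4 form batch 5, which has no control. With 1 clone per gene, an effect of the lost gene and an effect of the clone cannot be told apart, and the p-values measure only the spread between libraries of these clones. Total IGF2BP1 knockout replicate 2 and nuclear IGF2BP1 knockout replicate 1 hold the same counts at every identifier (0 of 62703 differ), the only such pair among the libraries. The main results on total or nuclear RNA of that knockout are therefore also given without it, with the remaining library assumed to vary like the other groups.

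Library totals ran from 13689067 to 26119480 assigned counts. The targeted genes followed their labels: IGF2BP1 stood at 5.31% of the control in total RNA of its knockout, IGF2BP2 at 40.2% and IGF2BP3 at 43.8%. In none of the 3 RNA kinds did a knockout library reach the lowest control library for its targeted gene. Family members that were not targeted moved too. In total RNA IGF2BP1 changed by -0.42 and -0.48 on the log2 scale without IGF2BP2 and IGF2BP3, and IGF2BP3 by 0.10 and -0.48 without IGF2BP1 and IGF2BP2. IGF2BP2 changed by -0.54 and -0.16 without IGF2BP1 and IGF2BP3, the former -0.05 in nuclear and 0.07 in cytoplasmic RNA. Of the line's markers, LIN28B (100.3 CPM), NEFM (203 CPM), NEFL (53.5 CPM) and PAX2 (3.12 CPM) were present in control total RNA, while HBB, PTPRC, CD3E and ALB, of other cell types, were at or under 0.105 CPM and EPCAM at 2.02 CPM. The line's markers moved too: in total RNA of the 3 knockouts 1, 2 and 3 of the 4 were lower and 0, 0 and 1 higher, with NEFM at -0.78, -0.31 and -2.66. The IGF2BP1 knockout values depend on the shared library: without it LIN28B stood at 0.27 in place of -0.11, NEFL at 0.39 in place of 0.25 and NEFM at -0.66. Genes used as markers of the fractions also moved: all 8 cytoplasmic markers (such as GAPDH and ACTB) fell in the total libraries when IGF2BP2 or IGF2BP3 was lost, against 1 of 8 when IGF2BP1 was (3 without the shared library). The nuclear noncoding RNA MALAT1 rose in cytoplasmic RNA, with log2 changes of 0.42, 1.85 and 2.18 on loss of IGF2BP1, IGF2BP2 and IGF2BP3. Of the 4 tested nuclear markers, 3 and 4 were also higher in total RNA on loss of IGF2BP2 and IGF2BP3, and 1 and 0 lower. The shares of all genes higher there were 23.3% and 23.5%. The part of these shifts in the results below was not tested.

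MYC encodes a transcription factor that pairs with MAX and drives genes of ribosome production, nucleotide synthesis and growth. Its mRNA is short-lived, and IGF2BP1 was described early on as a protein that binds a stretch of its coding region and slows its decay; the related IGF2BP2 and IGF2BP3 bind many mRNAs, MYC among them. PVT1 is a long noncoding RNA transcribed just downstream of MYC, hosts several microRNAs and is often amplified with MYC in tumours. The surrounding region is poor in protein-coding genes and rich in enhancers that contact the MYC promoter.

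By GENCODE 29 on GRCh38, MYC lies at chr8:127735434-127741434 on the plus strand. CASC11 (chr8:127686343-127733967, minus strand) starts 1.5 kb from the MYC start and runs the other way, and PVT1 (chr8:127794533-128101253, plus strand) starts 59.1 kb downstream. Upstream, POU5F1B (chr8:127322183-127420066, plus strand) starts 413.3 kb away and LRATD2 (chr8:126552442-126558393, minus strand, FAM84B in that annotation) 1177 kb away. LRATD2 overlaps the start of the antisense noncoding gene PCAT1, which also overlaps POU5F1B, so without stated strand use in counting, reads of these genes could be mixed. TRIB1 (chr8:125430321-125438405, plus strand) starts 2305.1 kb upstream. NSMCE2 (chr8:125091679-125367120, plus strand) and WASHC5 (chr8:125024260-125091840, minus strand) start head to head, 2643.8 and 2643.6 kb upstream, and overlap at their starts. ASAP1 (chr8:130052104-130443660, minus strand) starts 2708.2 kb downstream.

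Levels are given as CPM, read counts scaled to the normalised library size, which compares libraries but not genes. Per kilobase of annotated exon, MYC and LRATD2 led the locus in control total RNA, at 94.6 ± 4.61 and 88.1 ± 14.8 CPM per kb (SD, n = 4), and their ranges overlapped (88.7 to 98.6 and 75.3 to 102). WASHC5 (22.5 ± 1.25) and TRIB1 (20.0 ± 0.297) followed, then ASAP1 (12 ± 0.944) and NSMCE2 (11.8 ± 0.810), whose ranges also overlapped, and PVT1 stood at 2.60 ± 0.368. The deposited FPKM values gave another order, with MYC at 46.5 ± 2.35, NSMCE2 at 0.126 ± 0.0087 and PVT1 at 0.0458 ± 0.0066. The ratio of CPM to deposited FPKM was 304 for PVT1 and 5.95 for MYC, close to the whole gene spans of 306.7 and 6 kb rather than the exonic lengths of 5.49 and 3 kb. The FPKM of genes with long introns is therefore not comparable with that of MYC on an exonic scale.

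Of the 9 genes, 7 had enough counts to be tested in every kind of RNA. POU5F1B, a retrogene copy of the pluripotency factor gene POU5F1 with which reads could be shared, had 0 to 7 counts per library and was at 0 in 17 of 32. It had 7, 4, 1 and 3 counts in the total control libraries, 3, 2, 2 and 3 in the nuclear ones and 0, 0, 0 and 3 in the cytoplasmic ones, 28 in all. The 6 libraries of the IGF2BP2 knockout held 0 counts, the 8 of the IGF2BP3 knockout 3 and the 6 of the IGF2BP1 knockout 8, and each library at 0 is still compatible with up to 3. CASC11 had 0 to 10 counts, was at 0 in 11 of 32 libraries and summed to 28 counts over the 12 control libraries and to 1, 10 and 15 over those of the knockouts. Neither gene was tested, and no fold is given at these counts.

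**Figure D1:**
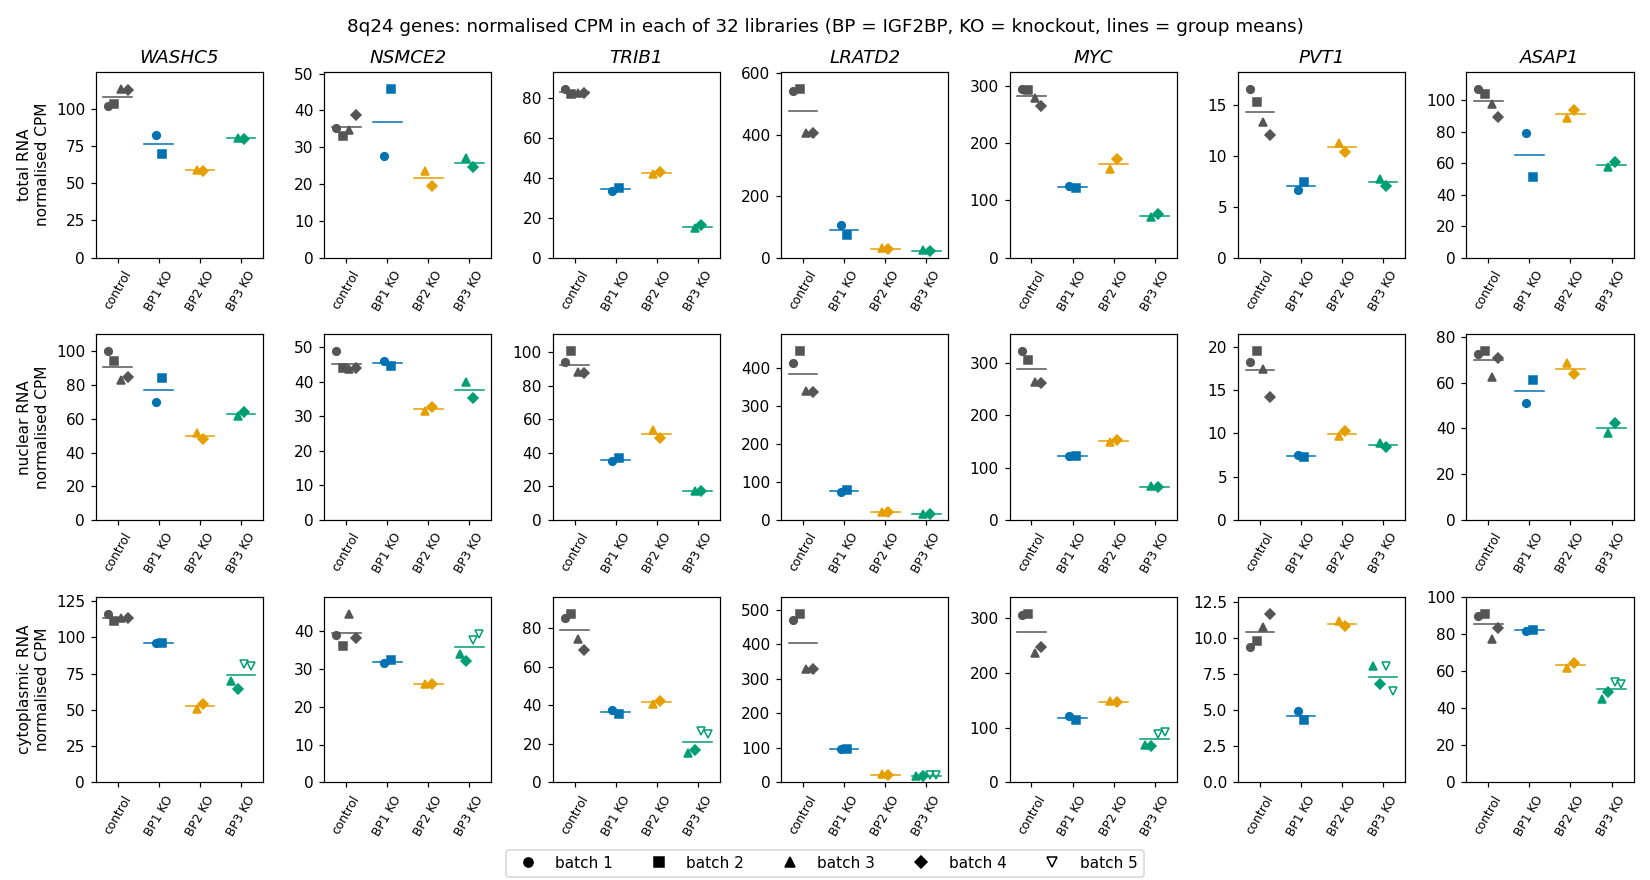
Normalised CPM (vertical axes from 0, one scale per panel) of the 7 tested genes in each library of total, nuclear and cytoplasmic RNA, by genotype, with marker shape for the batch and a line at each group mean. MYC, LRATD2 and TRIB1 lay below every control library in every knockout library, while NSMCE2, ASAP1, PVT1 (cytoplasmic, IGF2BP2 knockout) and WASHC5 (nuclear, IGF2BP1 knockout) overlapped with the control in some groups.

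MYC was lower in all knockouts and lowest in the IGF2BP3 knockout. In total RNA, control replicates 1 to 4 held 296, 294, 279.5 and 266 CPM, libraries without IGF2BP1 126 and 122, those without IGF2BP2 155 and 173, and those without IGF2BP3 70.6 and 76.1. No knockout library reached the lowest control library, and the knockouts did not overlap with each other. The fitted levels against controls of the same batches were 42.0%, 60.1% and 26.9% of the control, or log2 changes of -1.25, -0.73 and -1.90 (SE 0.09 each). Nuclear RNA held 323, 305, 264 and 262 CPM in the control, then 122 and 123, 150.1 and 153, and 64.2 and 63.8 in the knockouts in the same order. The order of the groups was that of total RNA, with log2 changes of -1.36, -0.79 and -2.04. In the cytoplasm, control libraries held 306, 309, 237 and 247 CPM, against 122 and 115, 148 and 146, and, in batches 3 and 4 of the IGF2BP3 knockout, 69.2 and 67.4 (log2 changes of -1.38, -0.72 and -1.83). Without the shared library the IGF2BP1 knockout changes were -1.22 in total and -1.31 in nuclear RNA. Bulk libraries cannot tell apart fewer MYC transcripts in each cell and fewer cells that express the gene.

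PVT1, the noncoding neighbour of MYC, fell with it in the IGF2BP1 knockout and less in the others. Total RNA held 16.6, 15.3, 13.3 and 12 CPM in the control, 6.61 and 7.45 without IGF2BP1, 11.2 and 10.4 without IGF2BP2, and 7.75 and 7.0 without IGF2BP3. All knockout libraries lay below all controls, but those of the IGF2BP2 knockout were near the lowest control. The log2 changes were -1.18 (SE 0.13, adjusted p = 4.79e-05), -0.23 (SE 0.13, adjusted p = 0.163) and -0.78 (SE 0.13, adjusted p = 0.000339) by edgeR's quasi-likelihood test with Benjamini-Hochberg adjustment over all genes tested, which holds for every adjusted p below. With no batch term the IGF2BP2 knockout value was -0.41 and passed the test. Leaving out the shared library gave -1.32 (total) and -1.42 (nuclear) for the IGF2BP1 knockout, both past the test. In nuclear RNA PVT1 fell in all 3 knockouts, by 1.36, 0.65 and 0.87 on the log2 scale (adjusted p = 1.05e-10, 0.000123 and 1.15e-06). In the cytoplasm, where the control held only 9.34 to 11.7 CPM, it fell by 1.05 and 0.61 in the IGF2BP1 and IGF2BP3 knockouts (adjusted p = 1.97e-07 and 4.91e-05). The 11.1 and 10.8 CPM of the cytoplasmic IGF2BP2 knockout libraries lay within the control range.

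LRATD2 encodes a protein with a domain related to lecithin retinol acyltransferase. Its change was the largest of the 7 tested genes: control total RNA held 541, 549, 407 and 406 CPM, against 107 and 74.2 without IGF2BP1, 30.0 and 28.7 without IGF2BP2, and 23.7 and 22 without IGF2BP3. No knockout library came near the lowest control library. These are 16.4%, 7.21% and 5.61% of the control (log2 changes of -2.61, -3.79 and -4.15, with SE 0.12, 0.13 and 0.13). The order of the knockouts thus differed from that of MYC, with the IGF2BP1 rather than the IGF2BP2 knockout closest to the control. Nuclear RNA gave -2.48, -4.01 and -4.47, and cytoplasmic RNA -2.31, -3.87 and -4.16. Without the shared library the IGF2BP1 knockout values were -2.33 in total and -2.49 in nuclear RNA. Ranked from the lowest change among 18745 genes in total RNA, LRATD2 was 89th, 14th and 17th in the 3 knockouts.

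TRIB1, a pseudokinase that brings proteins to the ubiquitin ligase COP1, lies more than 2 Mb from MYC and followed it most closely. Its control libraries were the least variable of the locus in total RNA, at 84.7, 81.9, 82.5 and 82.4 CPM, and the knockouts held 33.5 and 34.8, 41.9 and 43.1, and 14.6 and 16.5 CPM. All knockout libraries were below all controls, in the same order as for MYC. The log2 changes of -1.29, -0.96 and -2.41 passed the test (adjusted p = 3.64e-06, 7.24e-06 and 8.85e-09). Nuclear RNA held 94.1, 100.4, 88.0 and 87.2 CPM in the control, against 34.9 and 36.8, 53.3 and 48.5, and 17.5 and 17.4 in the knockouts. Its changes of -1.44, -0.79 and -2.32 there, and of -1.24, -0.78 and -2.15 in the cytoplasm, also passed the test. The total and nuclear values of the IGF2BP1 knockout without the shared library were -1.33 and -1.45.

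WASHC5 and NSMCE2 share a start region but did not move in step. WASHC5 encodes strumpellin, a subunit of the WASH complex that builds branched actin on endosomes. It fell in every knockout and RNA kind and most in the IGF2BP2 knockout, where total RNA held 58.7 and 58.3 CPM against 102, 103, 113 and 112 in the control. The IGF2BP1 knockout held 82.5 and 69.8 CPM and the IGF2BP3 knockout 80.4 and 79.9, all below the control range. The total RNA changes were -0.43, -0.95 and -0.49 (adjusted p = 0.00545, 6.77e-06 and 0.000894), the nuclear ones -0.34, -0.76 and -0.41, and the cytoplasmic ones -0.25, -1.11 and -0.76. The nuclear change of the IGF2BP1 knockout was -0.16 and did not pass the test without the shared library, and was -0.23, again not past the test, without the batch term; the total one was -0.30 without that library.

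NSMCE2 encodes the SUMO ligase of the SMC5/6 complex, which serves DNA repair. It fell in the IGF2BP2 knockout in all 3 RNA kinds, by 0.77, 0.44 and 0.67 on the log2 scale (adjusted p = 0.00207, 0.000293 and 3.29e-10). In total RNA the control held 35.1, 33.1, 34.6 and 38.8 CPM, libraries without IGF2BP2 23.5 and 19.6 and those without IGF2BP3 27.0 and 24.6, with no overlap. The 2 total IGF2BP1 knockout libraries lay on either side of the control, at 27.6 and 45.9 CPM. Their fitted change of 0.07 became -0.34, past the test, without the shared library, which is the one at 45.9. Nuclear IGF2BP1 knockout RNA (46.0 and 44.6 CPM) lay within the control range of 43.7 to 48.8. The IGF2BP3 knockout changes were -0.51 in total RNA (adjusted p = 0.0213), -0.22 in the nucleus (adjusted p = 0.0599) and -0.32 in the cytoplasm (adjusted p = 7.6e-05). The cytoplasmic value was -0.06 when scaled by library totals alone and -0.14 without the batch term, neither past the test. For the total RNA value, the call was lost with library totals (-0.29), with upper quartile factors (-0.38) and without total control replicate 4 (-0.32). In the cytoplasm of the IGF2BP1 knockout, NSMCE2 fell by 0.23 (adjusted p = 0.00603), a call lost with DESeq2 and, at -0.15, without cytoplasmic IGF2BP1 knockout replicate 1 or cytoplasmic control replicate 1. The total IGF2BP2 knockout call was lost without total IGF2BP2 knockout replicate 2 (-0.63) or total control replicate 4 (-0.60).

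ASAP1, on the far side of PVT1, encodes an ARF GTPase-activating protein of the cytoskeleton and membrane traffic. It fell in the IGF2BP3 knockout in all 3 RNA kinds, by 0.66, 0.72 and 0.78 (adjusted p = 0.000764, 3.94e-08 and 2.21e-15). Total RNA held 107, 104, 97.3 and 89.4 CPM in the control and 57.8 and 60.4 in the IGF2BP3 knockout. The IGF2BP2 knockout, at 88.8 and 93.7 CPM, overlapped with the control (log2 change -0.03, adjusted p = 0.85), and so did its nuclear libraries (-0.01, adjusted p = 0.953). Only its cytoplasmic value, -0.34, passed the test (adjusted p = 2.28e-07). In the IGF2BP1 knockout the 2 total libraries differed, at 79.0 and 51.2 CPM, and the change was -0.73 with the shared library, which is the lower one, and -0.44 without it, past the test in both cases. The nuclear value moved from -0.38 to -0.27 without that library and then did not pass. The small cytoplasmic change of -0.14 (adjusted p = 0.0148) was lost with DESeq2, without the batch term (-0.06), with library totals (-0.06), and without either IGF2BP1 knockout library or control replicate 1 or 2.

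**Figure D2:**
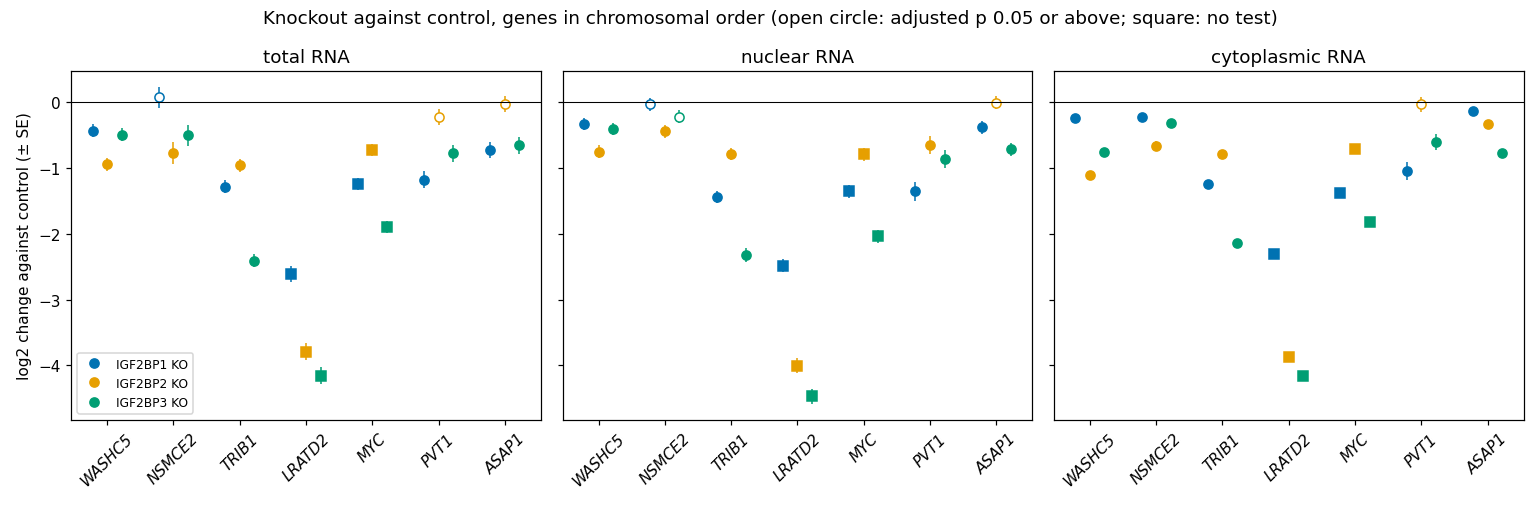
Fitted log2 change against the control with its standard error (vertical axis) for the 7 tested genes in chromosomal order, in total, nuclear and cytoplasmic RNA, coloured by knockout; open circles did not pass the test and squares carry no test. LRATD2 fell most in each knockout, MYC and TRIB1 sat lowest in the IGF2BP3 knockout, and WASHC5 fell most in the IGF2BP2 knockout.

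Counted together, 6, 5 and 7 of the 7 tested genes were lower at adjusted p below 0.05 in total RNA of the IGF2BP1, IGF2BP2 and IGF2BP3 knockouts, MYC and LRATD2 included by their selection. Of all 18745 genes tested, 13.5%, 23.7% and 23.4% were lower in those comparisons and 10.7%, 23.3% and 23.5% higher. In nuclear RNA 6 of 7 were lower in each knockout, beside 13%, 24.9% and 25.3% of all genes lower and 12.7%, 24.8% and 25.1% higher. Cytoplasmic counts were 7, 6 and 7 of 7, beside 21.9%, 33.2% and 33.2% of all genes lower and 22.5%, 30.9% and 31.5% higher. None of the 7 was higher in any of the 9 comparisons, and none at an unadjusted p below 0.05 either. The 3 knockouts share control libraries, so these counts are not independent of one another. The total and nuclear counts of the IGF2BP1 knockout rest partly on the shared library. Without it WASHC5 and ASAP1 fell less in nuclear RNA, and the fitted NSMCE2 change in total RNA turned negative, as given above. Scaling by library totals alone moved the median change of all genes by up to 0.27 (cytoplasmic IGF2BP3 knockout) and left 5 to 6 of the 7 genes lower in each comparison. It moved the split of calls in that comparison from 48.6% to 72.9% higher.

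The genes were not chosen on the comparison of knockouts with each other. Its values are, however, differences of the same fitted changes on which MYC and LRATD2 were chosen. For these 2 genes the tests are therefore not independent of that choice. MYC was lower in the IGF2BP3 than in the IGF2BP2 knockout in total, nuclear and cytoplasmic RNA, by 1.16, 1.25 and 1.11 on the log2 scale (SE 0.09, 0.10 and 0.04, adjusted p = 1.05e-06, 2.07e-14 and 6.62e-21). It was also lower than in the IGF2BP1 knockout, by 0.65, 0.68 and 0.45 (adjusted p = 0.00179, 0.0001 and 1.11e-07). The IGF2BP2 knockout kept more MYC than the IGF2BP1 knockout, by 0.52, 0.56 and 0.66 (adjusted p = 0.00714, 0.00116 and 1.74e-11). These clones were set against controls of different batches. Without the batch term the cytoplasmic difference was 0.32 and did not pass, and the total RNA call was lost without total IGF2BP2 knockout replicate 2 (0.44) or total control replicate 4 (0.41).

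TRIB1 repeated the gap between the IGF2BP3 and IGF2BP2 knockouts, with differences of -1.45, -1.54 and -1.37 (adjusted p = 5.67e-07, 7.1e-17 and 4.94e-18). Its differences between the IGF2BP2 and IGF2BP1 knockouts were 0.33 (adjusted p = 0.0857), 0.66 and 0.46 (adjusted p = 0.000152 and 2.73e-05). LRATD2 fell further in the IGF2BP2 than in the IGF2BP1 knockout, by 1.19, 1.52 and 1.56 (adjusted p = 0.000193, 1.96e-11 and 1.11e-18), where MYC differed in the opposite direction. Its difference between the IGF2BP3 and IGF2BP2 knockouts was smaller, at -0.36, -0.46 and -0.29 (adjusted p = 0.0329, 0.00115 and 0.000605). Those calls were lost in total RNA without any of the 4 libraries of the 2 knockouts or control replicate 3 or 4 (-0.40 to -0.32), in the nucleus without IGF2BP3 knockout replicate 1 (-0.40) and in the cytoplasm without IGF2BP2 knockout replicate 1 (-0.19).

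PVT1 kept a higher level in the IGF2BP2 than in the IGF2BP1 knockout, by 0.95, 0.71 and 1.01 (adjusted p = 0.00171, 0.00535 and 1.96e-05), and the nuclear call was lost with DESeq2 and without nuclear IGF2BP2 knockout replicate 2 or nuclear control replicate 4 (0.56 each). Where MYC was lower in the IGF2BP3 than in the IGF2BP1 knockout, PVT1 was not: its differences were 0.40, 0.49 and 0.44, of which the nuclear and cytoplasmic ones passed at adjusted p = 0.0484 and 0.0499 and were lost in most of the fits that left out a library. It was lower in the IGF2BP3 than in the IGF2BP2 knockout by 0.55 in total and 0.57 in cytoplasmic RNA (adjusted p = 0.00423 and 3.6e-05), the first lost without any of the 4 total libraries of those knockouts (-0.57 to -0.53), and held a nuclear difference of -0.21 (adjusted p = 0.231).

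The flanking genes differed between the clones in their own ways. WASHC5 kept more of its level without IGF2BP3 than without IGF2BP2, with differences of 0.45, 0.34 and 0.35 (adjusted p = 0.00195, 0.00327 and 3.53e-07). The total RNA call was lost without either IGF2BP2 knockout library (0.45 each), and the nuclear one without replicate 2 of either knockout (0.27 and 0.30). In the cytoplasm WASHC5 and NSMCE2 were lower in the IGF2BP2 than in the IGF2BP1 knockout, by 0.86 and 0.44 (adjusted p = 2.27e-12 and 0.000384). ASAP1 was lower without IGF2BP3 than without IGF2BP2, by 0.63, 0.71 and 0.44 (adjusted p = 0.00123, 5.52e-08 and 1.78e-09).

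Of the 7 genes, 6 differed between the IGF2BP2 and IGF2BP1 knockouts in total RNA, 3 between the IGF2BP3 and IGF2BP1 knockouts and 6 between the IGF2BP3 and IGF2BP2 knockouts, beside 33.3%, 34.4% and 43.3% of all genes tested. The nuclear counts were 7, 4 and 5 beside 28.1%, 34.7% and 48.2%, and the cytoplasmic counts 7, 6 and 7 beside 48.4%, 51.3% and 62.7%. The 7 genes include MYC and LRATD2. Leaving out total IGF2BP2 knockout replicate 2 or total control replicate 4 lowered the first total RNA count to 2. The third fell to 3 without either total IGF2BP2 knockout library, and the second rose to 5 without total IGF2BP1 knockout replicate 1 or total control replicate 1. Without the shared library the total RNA counts against the IGF2BP1 knockout were 7 and 4, and the nuclear ones 6 and 5. The nuclear count of 7 was 3 with DESeq2, 4 without nuclear control replicate 3 and 3 without nuclear control replicate 4, and the cytoplasmic count of 7 was 4 without the batch term.

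Where the transcripts lay in control cells was not used in the selection. PVT1 was the most nuclear of the 7, with 14.2 to 19.5 CPM in the nuclear and 9.34 to 11.7 CPM in the cytoplasmic fraction, a log2 difference of 0.66 (SE 0.10, adjusted p = 6.44e-06). WASHC5 and ASAP1 were higher in the cytoplasmic fraction, by -0.41 and -0.37 as nuclear minus cytoplasmic (adjusted p = 3.21e-06 and 6.76e-06). MYC mRNA was at a like normalised level in both (-0.01, SE 0.06, adjusted p = 0.886), and LRATD2 (-0.14) and NSMCE2 (0.11) did not pass the test. The TRIB1 value of 0.14 passed narrowly (adjusted p = 0.0403) and was lost in 8 of 25 alternatives, among them DESeq2 and leaving out control replicates 2, 3 or 4 of either fraction. Of all genes tested, 32.6% were higher in nuclear and 33.3% in cytoplasmic RNA. Levels are relative within each fraction and do not give the share of molecules in it.

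The nuclear to cytoplasmic ratio was also compared between each knockout and the control. Its change is the difference of the nuclear and cytoplasmic changes on which MYC and LRATD2 were chosen. The ratio tests of these 2 genes are therefore not independent of that choice. For MYC the ratio changed by 0.03, -0.12 and -0.27 on the log2 scale in the IGF2BP1, IGF2BP2 and IGF2BP3 knockouts (SE 0.09, 0.09 and 0.10), and none passed the test (adjusted p = 0.903, 0.408 and 0.0638). The last one passed in 5 alternatives, at -0.28 to -0.25, among them leaving out the shared library. The PVT1 ratio fell by 0.66 in the IGF2BP2 knockout (SE 0.18, adjusted p = 0.0105): nuclear RNA dropped to 9.73 and 10.2 CPM while cytoplasmic RNA stayed at 11.1 and 10.8 CPM. This call was lost without cytoplasmic IGF2BP2 knockout replicate 2, cytoplasmic control replicate 3, nuclear IGF2BP2 knockout replicate 1 or nuclear control replicate 3 (-0.64 to -0.51). LRATD2 passed in the IGF2BP3 knockout (-0.37, SE 0.11, adjusted p = 0.0315), a call lost in 12 of 25 alternatives, among them no batch term (-0.25). So 0, 1 and 1 of 7 genes passed, beside 2.99%, 18% and 10.2% of all genes; without the shared library the last 2 counts were 3 and 3. MALAT1, a nuclear marker, rose in the cytoplasmic libraries of the same knockouts, and most of the tested nuclear markers were also higher in their total RNA. The part of these shifts in the ratios was not tested.

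**Figure D3:**
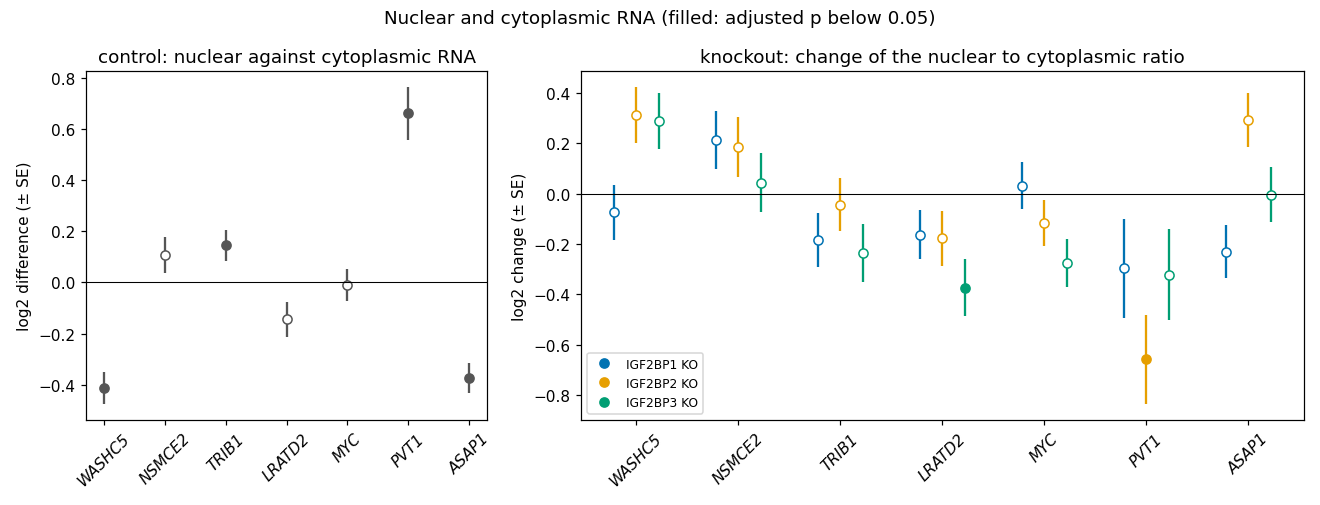
Left, the log2 difference between nuclear and cytoplasmic RNA in the control, and right, the log2 change of that ratio in each knockout, with standard errors, for the 7 tested genes; filled points passed the test. PVT1 stood highest on the left at 0.66, and on the right only PVT1 in the IGF2BP2 knockout and LRATD2 in the IGF2BP3 knockout were filled.

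The control itself was not constant across batches. LRATD2 was lower in control batches 3 and 4 than in 1 and 2 in total, nuclear and cytoplasmic RNA, by 0.42, 0.33 and 0.53 on the log2 scale (adjusted p = 1.85e-10, 0.0011 and 3.59e-08), a small difference beside its fall in the knockouts. MYC was lower there by 0.25 in nuclear and 0.33 in cytoplasmic RNA (adjusted p = 0.0141 and 1.15e-05), and by 0.11, which did not pass, in total RNA. PVT1 was lower by 0.32 in total RNA (adjusted p = 0.0152) and TRIB1 by 0.26 in cytoplasmic RNA (adjusted p = 0.0013). Of all genes tested, 31.2%, 26.5% and 26.3% differed between those control batches in total, nuclear and cytoplasmic RNA. The fits therefore set each knockout against controls of its own batches.

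Batch 5 repeated the cytoplasmic IGF2BP3 knockout with libraries that did not enter its fold change, and without a control of its own, so batch and knockout cannot be told apart in it. MYC held 88.8 and 91.4 CPM, below every cytoplasmic control library (237 to 309) and above the 69.2 and 67.4 CPM of batches 3 and 4. Against the 4 controls the log2 changes of LRATD2 and MYC were -4.21 and -1.60, given with no test since both genes were chosen on their fall against these same controls. TRIB1 was lower by 1.60, ASAP1 by 0.66, PVT1 by 0.52 and WASHC5 by 0.48 (adjusted p = 2.42e-06, 7.16e-05, 0.0114 and 8.07e-05). NSMCE2, at 37.7 and 39.2 CPM, lay within the control range (-0.03, adjusted p = 0.81). With MYC and LRATD2 included by their selection, 6 of 7 genes were lower there, 4 of them among the 5 other tested genes. Of all genes, 24.6% were called lower. Within the clone, 6 of 7 genes, MYC and LRATD2 included, were higher in batch 5 than in batches 3 and 4, beside 30% of all genes. TRIB1 was higher by 0.69 (adjusted p = 2.13e-08), and PVT1 was not among the 6 (-0.04, adjusted p = 0.795). MYC stood at 0.40 and LRATD2 at 0.24, given with no test since both genes were chosen on their fall in libraries that include those of batches 3 and 4.

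Across the wider locus the fall was not uniform. Within 2 Mb of the MYC start only MYC, PVT1, LRATD2 and PCAT1 were expressed well enough to be tested, and PCAT1, a noncoding RNA antisense to LRATD2, was the only one of them not on the list. It held 1.76 ± 0.247 CPM (SD, n = 4) in control total RNA and changed by -1.78, -2.98 and -2.81 in the 3 knockouts (adjusted p = 0.00236, 9.45e-05 and 9.47e-05). Its start overlaps LRATD2 on the other strand, and the counting's use of strand is not given in the sources used here.

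Within 5 Mb there were 33 tested genes, 26 of them not on the list. Of these 26, in total RNA, 6, 10 and 9 were lower and 0, 4 and 3 higher in the 3 knockouts. That is 23.1%, 38.5% and 34.6% lower and 0%, 15.4% and 11.5% higher. Here and in the fractions below, the higher genes of the IGF2BP2 and IGF2BP3 knockouts include DNAAF11, which passed the filter only through those knockouts. On chromosome 8 beyond 10 Mb, 14.4%, 21.6% and 24.2% of 583 genes were lower and 7.38%, 24.9% and 21.4% higher. In nuclear RNA 30.8%, 42.3% and 42.3% of the 26 were lower and 0%, 19.2% and 15.4% higher. Beyond 10 Mb the nuclear shares were 12.2%, 20.9% and 25.7% lower and 11.3%, 28.9% and 20.9% higher. In cytoplasmic RNA 42.3%, 50% and 53.8% of the 26 were lower and 7.69%, 23.1% and 15.4% higher. Beyond 10 Mb the cytoplasmic shares were 24.2%, 32.2% and 33.8% lower and 19.0%, 32.2% and 29.6% higher. In nuclear RNA of the IGF2BP1 knockout the median of the 26 was -0.21, and -0.11 without the shared library. The median change of the 26 in total RNA was -0.20, -0.11 and -0.16, beside -0.05, 0.04 and -0.03 for the 583. The IGF2BP1 knockout count was again 6 lower and 0 higher without the shared library, with a median of -0.16. For all tested genes within 1, 2, 5 and 10 Mb, members included, the median in the IGF2BP3 knockout was -1.34, -2.36, -0.28 and -0.24, without IGF2BP2 it was -0.48, -1.86, -0.19 and -0.15, and without IGF2BP1 -1.21, -1.51, -0.21 and -0.23. The first of these windows holds only MYC and PVT1, of which only MYC was called lower in the IGF2BP2 knockout, and the second 4 genes. MYC and LRATD2 were chosen on their fall, so the medians of these 2 windows do not show how the change varied with distance. Without the members, the medians within 10 Mb were -0.20, -0.10 and -0.16 in the IGF2BP1, IGF2BP2 and IGF2BP3 knockouts.

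Single neighbours show the spread. EFR3A, a plasma membrane scaffold for a lipid kinase, starts 4168.7 kb downstream, held 74.9 ± 5.20 CPM in the control and fell by 0.96, 0.90 and 0.86 in total RNA (adjusted p = 6.77e-05, 3.02e-05 and 3.96e-05). SQLE, squalene epoxidase of cholesterol synthesis, starts 2736.9 kb upstream and fell by 0.38, 1.48 and 1.19 from a control level of 276 ± 76.7 CPM (adjusted p = 0.00488, 8.09e-08 and 3.14e-07). CYRIB, a RAC1 binding protein between PVT1 and ASAP1, held 109 ± 9.31 CPM and changed by -0.07, -0.60 and -0.52, the last 2 past the test. ZNF572, next to SQLE, did not pass in total RNA of any knockout (0.55, -0.01 and 0.48) but rose in nuclear RNA of the last 2 (1.02 and 0.99, adjusted p = 0.00202 and 0.00248) and in cytoplasmic RNA of the IGF2BP3 knockout (0.55, adjusted p = 0.0383). DNAAF11, 4940.2 kb downstream, was barely detected in the control (0.168 CPM). It passed the filter on low counts only through the IGF2BP2 and IGF2BP3 knockouts, where it was high. Its fitted changes there (3.10 and 3.39) are therefore given with no test. The noncoding genes AC090192.2 (2.44 in the IGF2BP2 knockout, from a control level of only 0.547 CPM) and AC016405.3 (1.21 and 1.15 in the IGF2BP2 and IGF2BP3 knockouts) also rose. Farther out in the band, NDRG1 fell by 1.78, 1.18 and 1.78 and the sialyltransferase gene ST3GAL1 by 1.41, 0.90 and 1.18 in total RNA. With the shared library left out, the IGF2BP1 knockout values were -1.87 for PCAT1, -0.77 for EFR3A, -0.37 for SQLE, -1.54 for NDRG1 and -1.30 for ST3GAL1, all past the test, and -0.01 for CYRIB.

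**Figure D4:**
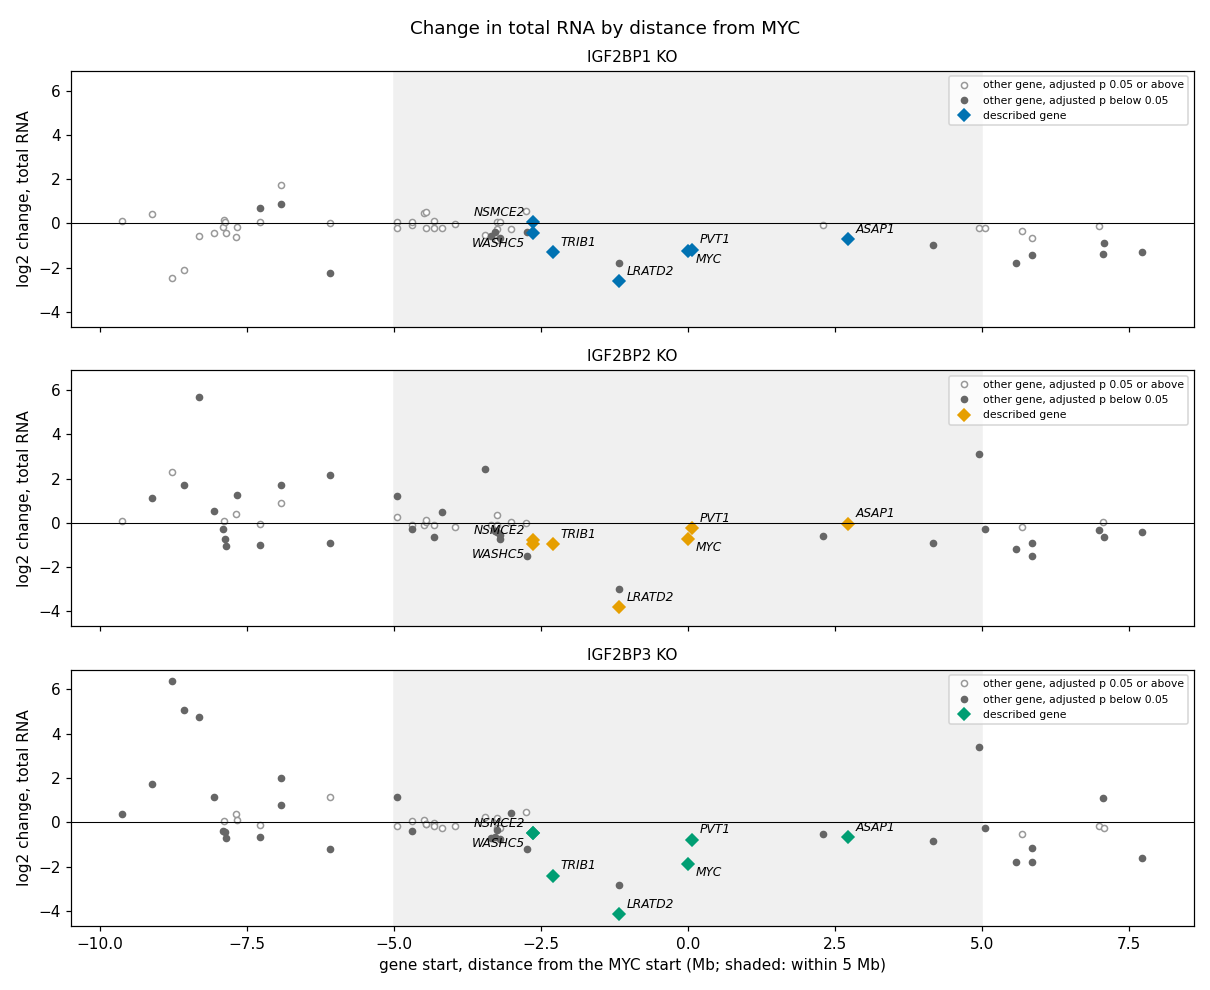
Log2 change in total RNA (vertical axis) of every tested gene within 10 Mb of MYC, by the distance of its start from the MYC start in Mb (horizontal axis), in one panel per knockout; diamonds are the described genes, filled circles other genes that passed the test and the shading marks 5 Mb. LRATD2 and the neighbouring PCAT1 are the lowest points within 5 Mb in each panel, other low points alternate with points near 0, and a few genes rise in the IGF2BP2 and IGF2BP3 knockouts.

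Likeness between genes was described by the root mean square difference of the 9 fitted changes (3 knockouts in 3 kinds of RNA) over 14401 genes, with no test, since the comparisons share controls. The gene most like MYC was TRIB1 (0.24 on the log2 scale, 0.25 without the shared library), followed by GRB14, an adaptor of receptor tyrosine kinases on chromosome 2 (0.32), and ENSG00000280202 on chromosome 12 (0.32). PVT1 ranked 125th for MYC at 0.74. For LRATD2 the nearest were the collagen receptor gene DDR2 on chromosome 1 (0.76) and, on chromosome 8, the carbonic anhydrase gene CA2 (1.32) and SNAI2, a repressor of epithelial genes (1.42); TRIB1 ranked 17th and MYC 33rd. PVT1 was most like COL13A1 on chromosome 10 (0.21), ENSG00000258881 on chromosome 2 (0.23) and the helicase gene DHX33 on chromosome 17 (0.26), ahead of every gene of the locus. The last 2 were at 0.31 and 0.30 without the shared library, so their order depends on it, and GRB14 was at 0.26 for MYC.

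Genes that MYC is known to activate were read from a list of 70, all tested, written from general knowledge. In total RNA 13, 57 and 67 of them were lower and 6, 0 and 0 higher on loss of IGF2BP1, IGF2BP2 and IGF2BP3, with median log2 changes of 0.00, -0.57 and -0.99 beside 0.00, 0.02 and 0.02 for all genes. That is 18.6%, 81.4% and 95.7% lower, against 13.5%, 23.7% and 23.4% of all genes, so the first share lies closest to that of all genes. MYC was lower in the IGF2BP1 than in the IGF2BP2 knockout, and fewer of the listed targets were lower there in total RNA (13 against 57). More were lower there in cytoplasmic RNA (63 against 58), and a link of these counts to the MYC level was not tested. The count of 13 was 19 without the shared library and 7 in a fit on the libraries of batches 1 and 2 alone. In nuclear RNA 42, 45 and 63 were lower (medians of -0.29, -0.43 and -0.84) and 3, 6 and 2 higher, where 13%, 24.9% and 25.3% of all genes were lower. The 42 became 23 without the shared library or without nuclear control replicate 1, and 20 without the batch term. In cytoplasmic RNA 63, 58 and 66 were lower (medians of -0.38, -0.55 and -0.98) and 2, 2 and 1 higher, where 21.9%, 33.2% and 33.2% of all genes were lower, and the 63 became 9 without the batch term. The cytoplasmic markers fell too, by medians of -0.08, -0.80 and -0.65 in total RNA, one of them, ENO1, being on both lists; their part in these counts was not tested.

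Of the targets, DDX21, a helicase of ribosomal RNA processing, held 759 CPM in control total RNA and fell by 0.65, 0.74 and 1.24. NOLC1, a nucleolar phosphoprotein (593 CPM), fell by 0.49, 0.89 and 0.89. CAD, the enzyme that starts pyrimidine synthesis (409 CPM), fell by 0.34, 0.58 and 1.14, and GART of purine synthesis (402 CPM) by 0.28, 0.71 and 0.52. All 4 fell in every knockout in each of the 3 RNA kinds, with 1 exception: the nuclear GART change on loss of IGF2BP1 (-0.39) was -0.26 and did not pass without the shared library.

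**Figure D5:**
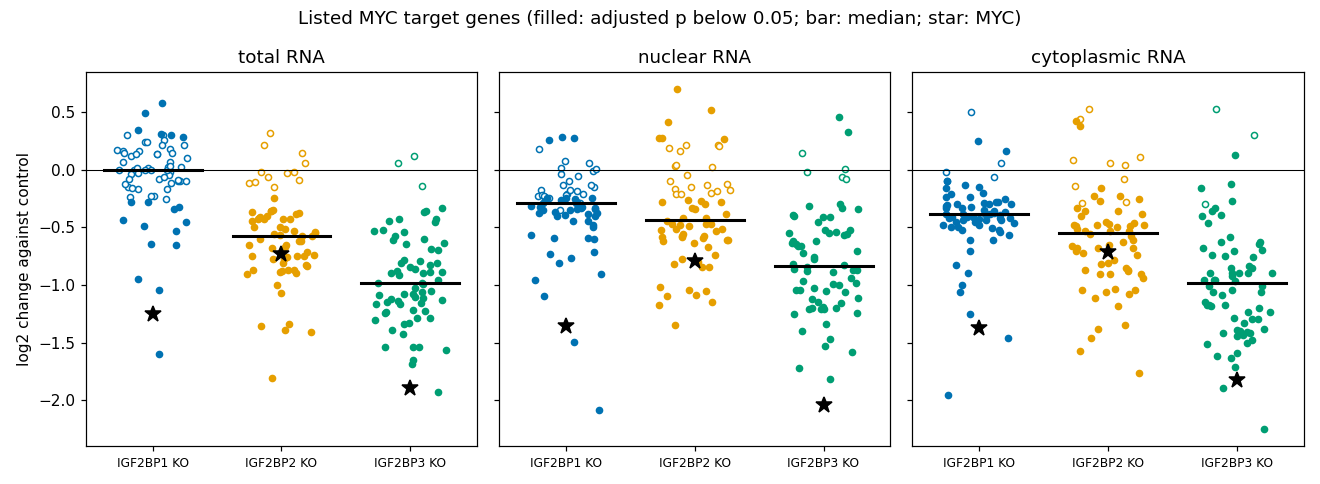
Log2 change against the control (vertical axis) of the 70 listed MYC target genes in each knockout, in total, nuclear and cytoplasmic RNA; filled points passed the test, bars are medians and stars mark MYC. The bars lie at 0.00, -0.57 and -0.99 in total RNA, and in the IGF2BP1 knockout the star lies far below the bar in each panel.

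The partners and regulators of MYC moved less uniformly. The shares of all genes lower in total RNA were 13.5%, 23.7% and 23.4%, and those higher 10.7%, 23.3% and 23.5%. Of 12 genes of the MYC, MAX and MLX network, 4, 3 and 2 were lower and 1, 3 and 4 higher (33.3%, 25% and 16.7% lower), which in the IGF2BP2 knockout is near the share of all genes. The IGF2BP1 knockout counts were 2 lower and 0 higher without the shared library. MXD3, which competes with MYC for MAX, rose by 0.59, 0.60 and 1.09, the first of which was 0.24 and did not pass without the shared library. MLX, the partner of the glucose-sensing branch, fell by 0.51 and 0.96 in the IGF2BP1 and IGF2BP2 knockouts and held -0.12 in the third. MLXIP fell by 0.39 and 0.28 in the first 2, the former -0.23 and not past the test without the shared library, and the repressor gene MXD1 rose by 0.65 and 0.38 in the last 2. Of 9 measured proteins that bind MYC mRNA beside the IGF2BPs, 1, 6 and 8 were lower (11.1%, 66.7% and 88.9%) and 1, 1 and 0 higher. PABPC1, the cytoplasmic poly(A) binding protein, fell by 0.57, 0.35 and 0.67, and YBX1 (-0.11, -1.15 and -0.73), KHSRP (-0.13, -0.34 and -0.96) and HNRNPU (0.02, -0.35 and -0.43) fell in the last 2 knockouts. Of 16 genes that act on MYC protein, 5, 7 and 8 were lower (31.2%, 43.8% and 50%) and 1, 0 and 0 higher, with 3 lower in the IGF2BP1 knockout without the shared library. The cofactor genes RUVBL1 (0.20, -0.71 and -0.96) and RUVBL2 (0.05, -0.59 and -0.95) fell in the last 2 knockouts. The deubiquitinase gene USP36 fell in the IGF2BP1 and IGF2BP3 knockouts (-0.43 and -0.46), and USP28 in the IGF2BP1 and IGF2BP2 knockouts (-0.42 and -0.64).

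IGF2BP proteins are described as preferring RNA with TGGAC as DNA letters. That motif was counted on the sense strand of each gene's longest GENCODE 29 transcript, as a description. MYC held 0.845 matches per kb, LRATD2 1.11, TRIB1 1.93, PVT1 1.77, WASHC5 1.43, NSMCE2 2.51 and ASAP1 0.158. The median of 14023 tested protein-coding genes was 1.11 (quartiles 0.696 and 1.65), and 95.2% of them held at least 1 match. MYC was therefore below, LRATD2 at and TRIB1 above that median.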

How the data were processed

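Read counts per gene and FPKM values were deposited by the authors as 1 table per kind of RNA and unit. The submitters' processing notes name STAR, featureCounts, DESeq2 1.44.0 and GRCh38, without roles; how strand was counted is not given in the sources used here. The authors' deposited counts were tested with edgeR 4.0.16 in R 4.3.3 (quasi-likelihood test, TMM factors, filterByExpr by group) with batch and genotype as terms, 1 fit per RNA kind, and Benjamini-Hochberg adjustment over all genes tested. A gene is called at adjusted p below 0.05. CPM are counts scaled to the library total times its TMM factor (0.922 to 1.12). The ratio fit holds the interactions of compartment with batch and genotype, on batches 1 to 4. Identifiers without a symbol (20403) hold 0.349 to 0.713% of counts. Positions and exons come from GENCODE 29, matched by Ensembl ID for 58279 of 62703 identifiers.

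The members and lists were chosen with earlier results of these data known. Named genes are the 9 members, the 3 genes most like MYC, LRATD2 and PVT1 among those with at least 1 CPM in each RNA kind, the 3 nearest tested genes on either side and the 2 that rose or fell most within 5 Mb, and up to 4 genes per list called the same way in most knockouts. Levels per exonic kb were added after the deposited FPKM were seen to follow the gene span. Libraries of a knockout and its controls share batches by their labels; their deviations from group means correlated at -0.139 to 0.0149 over genes above 1 CPM. Alternatives were RLE (relative log expression) and upper quartile factors, DESeq2 1.42.0, limma 3.58.1 on log2(FPKM + 1) and log2(FPKM + 0.1), no filter or 1 CPM in 2 libraries, no batch term, a knockout's own batches alone, and each library left out. Library totals alone, exchanged batches, batch 5 left out, the knockout comparisons with a library left out, and neighbours, lists and likeness without the shared library were added after seeing the data. The fits were tested on simulated counts first.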

Additional observations from a re-analysis of the deposited data

Results flagged for a closer look

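NSMCE2 in nuclear RNA had 1 control library apart from the others: replicate 1 held 48.8 CPM, against 43.7 to 44.0 in the other 3, so its gap to the nearest was 0.952 of the whole range, past Dixon's critical value for 4 samples. Of 28 groups of 4 libraries checked this was the only one, and chance gives about 1 in 20. Between the nuclear and cytoplasmic fractions the change differed for PVT1 in the IGF2BP2 knockout (-0.66) and for LRATD2 in the IGF2BP3 knockout (-0.37), as nuclear minus cytoplasmic on the log2 scale, by the interaction test of edgeR. For LRATD2 that test is not independent of the choice of the gene on its fall.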

How the results depend on the processing

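No called single-gene value changed sign in any alternative run. NSMCE2 in total RNA of the IGF2BP1 knockout, not called at 0.07, was called at -0.34 without total IGF2BP1 knockout replicate 2 or total control replicate 2 (-0.34), and at 0.47 without replicate 1 of either group. In fits that left out a library, 1745 values stayed the same, 101 lost the call, 45 gained it and 11 moved, and 2 uncalled values were called with the other sign. In the other alternatives 1003 stayed the same, 50 lost the call, 11 gained it and 65 moved. The changes of MYC and LRATD2 against the control and the medians of genes within 5 Mb carry no test here. For those, moved means a shift of at least the SD of the 2 batch pairs or, for the medians, the median SE. On log2(FPKM + 1) the pseudocount exceeds the deposited FPKM of PVT1, NSMCE2 and ASAP1, and only 3 genes stayed called lower in nuclear RNA of the IGF2BP1 knockout in place of 6. The MYC targets lower in that comparison numbered 16 and 18 on log2(FPKM + 1) and log2(FPKM + 0.1), 24 in its own batches alone, 23 to 41 with a library left out, and 42 as reported. Without the replicate block, that is without the batch term, they numbered 20, those in cytoplasmic RNA 9 in place of 63, the genes that differed between the cytoplasmic IGF2BP2 and IGF2BP1 knockouts 4 in place of 7, and the ratio calls of the IGF2BP3 knockout 0 in place of 1; the cause was not tested. In total RNA of the IGF2BP1 knockout, 7 targets were lower in its own batches in place of 13. DESeq2 called 3 in place of 7 genes between the nuclear IGF2BP2 and IGF2BP1 knockouts, and the filter at 1 CPM gave 2 ratio calls in the IGF2BP3 knockout. With a library left out, ratio calls ran from 0 to 3 in the IGF2BP2 and from 0 to 3 in the IGF2BP3 knockout. Genes that differed between knockouts ran from 2 to 7 (IGF2BP2 and IGF2BP1), 3 to 5 (IGF2BP3 and IGF2BP1) and 3 to 7 (IGF2BP3 and IGF2BP2) in total RNA, and from 3 to 6 between the nuclear IGF2BP2 and IGF2BP1 knockouts. Exchanging the batches of the IGF2BP3 knockout (total RNA) or the IGF2BP1 knockout (nuclear RNA), whose correlation with their controls was below -0.1, gave 7 and 6 genes lower, as reported. PVT1 rests on 81 to 482 counts per library, and POU5F1B and CASC11 were below the filter on low counts and not tested.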
